A study of Mus musculus with 19 samples.

Results

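The mitochondrial ribosomal protein genes encode the nuclear-made protein subunits of the ribosome inside mitochondria. They were taken here as every gene whose symbol begins with Mrpl (large subunit) or Mrps (small subunit) followed by a number, which gave 74 of the 18820 genes measured, 46 Mrpl and 28 Mrps. RefSeq lists 78 such protein-coding genes, and the remaining 4, Mrpl24, Mrpl43, Mrpl53 and Mrps6, were measured only by probe sets that the array annotation also assigns to a second gene. The genes were measured on 19 arrays of differentiated 3T3-L1 cells, a mouse preadipocyte line whose cells become lipid-filled adipocytes when differentiated. From day 8 of differentiation, acid-treated cells were kept for 48 h with 250 µM of a single free fatty acid. They were given palmitic acid (PA, n = 4; 16 carbons, 0 double bonds), palmitoleic acid (PMA, n = 4; 16 carbons, 1 double bond), stearic acid (SA, n = 4; 18 carbons, 0 double bonds) or oleic acid (OA, n = 3; 18 carbons, 1 double bond). Control cells (n = 4) received for the same 48 h only the ethanol and the 2% albumin in which the acids were delivered. Cells of all 5 groups had been without serum since day 7 and came from 1 cell line, at 1 dose and 1 time. Replicates are described as biological in the labels, which name no separate cultures or days, so p-values measure the spread between these arrays. The titles of the PMA samples read PMO, and their treatment label names palmitoleic acid.

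Mitochondria hold their own small genome, whose protein-coding genes all specify parts of the respiratory chain and of ATP synthase. The ribosome that translates them takes its RNA from that genome and all its proteins from nuclear genes, translated in the cytosol and imported. Some of these proteins have homologs in the bacterial ribosome, and the rest are specific to mitochondria. In adipocytes, mitochondrial mass increases as preadipocytes differentiate, and fatty acids are both fuel and signal for these cells. Of the 74 genes measured, 46 were classed here as having a bacterial homolog, Mrpl55 among them, and 28 as having none. This classing was not checked against sequences. The symbol does not always give the position: Mrps30 and Mrps18a are built into the large subunit of the mammalian mitochondrial ribosome, and Mrps36 is known as a part of the 2-oxoglutarate dehydrogenase complex.

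All values below are log2 RMA expression, the array signal on a log2 scale. Differences are given ± SE from limma, and a gene passed the test at a Benjamini-Hochberg adjusted p under 0.05 over all 18820 genes of a comparison. The array medians ranged from 5.23 to 5.43, and the correlation of 2 arrays across genes ranged from 0.988 to 0.997. The arrays of lowest quality weight, which limma estimates from how far an array lies from its group, were PA replicate 2 (0.292) and PMA replicate 1 (0.441), where an average array has a weight near 1. PA replicate 2 also had the highest array median, 5.43. All 9 adipocyte markers measured and 5 of 6 preadipocyte markers lay in the top tertile of genes by mean level, and 0 of 6 macrophage and 0 of 4 endothelial markers did. Of the mitochondrial ribosomal protein genes, 63 of 74 lay in the top tertile and 0 in the bottom tertile, and no filter on low values was applied, so all 74 were tested. The shares and medians given below for all genes were not matched to the members by level. Whether bright genes at large shared the members' shifts was therefore not tested. In bulk RNA of this kind, fewer cells with a transcript and less transcript per cell cannot be told apart.

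Oleic acid was the acid with which members passed the test: 2 large-subunit genes, Mrpl21 and Mrpl48, fell on the probe sets used, and none rose. The probe set used for Mrpl48 may measure a pseudogene, as described below. These calls are 2 of 74, where 0.861% of all genes passed with OA (0.404% as falls). Members below 0 numbered 57 of 74, against 43.3% of all genes, and the median difference was -0.05 over the members and 0.02 over all genes. On single arrays, members below the Control mean numbered 42, 62 and 45 with OA, and 27, 38, 21 and 59 in Control. With 1 array left out, the members' median with OA lay between -0.08 and -0.02. Before adjustment, 12 members had a p under 0.05 and all 12 were lower with OA, where 3.65% of all genes were lower and 7.99% higher by that rule. In 12 members every OA array lay below every Control array and in 0 members above, where 4.63% and 9.72% of all genes did so. The differences ran only to -0.34 (Mrpl21) and 0.11 (Mrpl51), and 0 of 74 members changed by 1.5-fold or more. A second, dimmer probe set of Mrpl51 gave -0.07 with OA.

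Mrpl21, a homolog of a bacterial large-subunit protein, measured 6.98, 6.75 and 7.03 in the OA arrays, against 7.32, 7.35, 7.23 and 7.17 in the Control arrays. The OA and Control arrays did not overlap, and OA replicate 2 was the lowest of all 19 arrays for this gene. The difference was -0.34 ± 0.08 (95% interval -0.50 to -0.19, adjusted p = 0.0347), a 1.27-fold lower signal. The other acids gave 7.20, 7.03, 7.30 and 7.17 (PA), 6.90, 6.97, 6.97 and 7.05 (PMA), and 7.11, 7.06, 6.87 and 6.99 (SA). All PMA and all SA arrays lay below all Control arrays, while PA arrays overlapped them. The differences from Control were -0.09 for PA (adjusted p = 0.51), -0.30 for PMA (0.0681) and -0.26 for SA (0.16), none of which passed.

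Mrpl48, a mitochondria-specific protein of the large subunit's central protuberance, measured 7.83, 7.70 and 7.93 in the OA arrays, against 8.11, 8.06, 8.12 and 8.09 in the Control arrays. The Control arrays stayed within a narrow band that no OA array reached. The difference was -0.27 ± 0.07 (95% interval -0.41 to -0.14, adjusted p = 0.0478). SA arrays, at 7.92, 7.75, 7.82 and 7.95, and PA arrays, at 8.01, 7.84, 7.92 and 7.90, also lay wholly below Control, with differences of -0.24 (adjusted p = 0.133) and -0.18 (0.23). PMA arrays, at 8.12, 7.95, 7.95 and 7.99, overlapped Control, and the difference was -0.09 (adjusted p = 0.445). Both calls stood near the threshold. With any 1 of the 3 OA or 4 Control arrays left out, 0 members passed with OA, and Mrpl48 also missed the threshold without PA replicate 3 or 4, PMA replicate 2, 3 or 4, or SA replicate 1 or 3. Over the 19 arrays left out in turn, the difference lay between -0.40 and -0.26 for Mrpl21 and between -0.33 and -0.21 for Mrpl48. With only the OA and Control arrays in the fit, Mrpl21 had an adjusted p of 0.065 and Mrpl48 of 0.0734. RefSeq also lists a pseudogene, Mrpl48-ps, on chromosome 4, while Mrpl48 lies on chromosome 7. Whether the probe set used for Mrpl48 measures the gene or this copy was not tested. The probe set listed for both Mrpl48 and Rab6a gave -0.19 with OA (adjusted p = 0.646).

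Other members stood close behind without passing. Mrpl14, a bacterial homolog at the face where the subunits meet, measured 8.90, 8.86 and 8.79 with OA, against 9.18, 9.09, 9.22 and 9.04 in Control, and the groups did not overlap. Its difference was -0.28 ± 0.08 (adjusted p = 0.108). Mrpl41, a mitochondria-specific protein of the large subunit, measured 7.02, 6.91 and 7.03 with OA, against 7.10, 7.22, 7.45 and 7.38 in Control, again without overlap. The 2 other probe sets that list Mrpl41, together with Dph7, gave 0.12 and -0.08 with OA. Which of these signals comes from the Mrpl41 transcript was not tested, so the values of the probe set used may not be those of the gene. On the probe set listed for Mrpl41 alone the difference was -0.30 ± 0.09 (adjusted p = 0.157), beside -0.29 with SA (0.219), -0.28 with PMA (0.138) and -0.07 with PA. In the small subunit the differences with the smallest p were those of Mrps18c, at -0.20 ± 0.07 (adjusted p = 0.236), and Mrps23, at -0.20 ± 0.07 (0.252). Both of these genes had every OA array below every Control array.

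**Figure D1:**
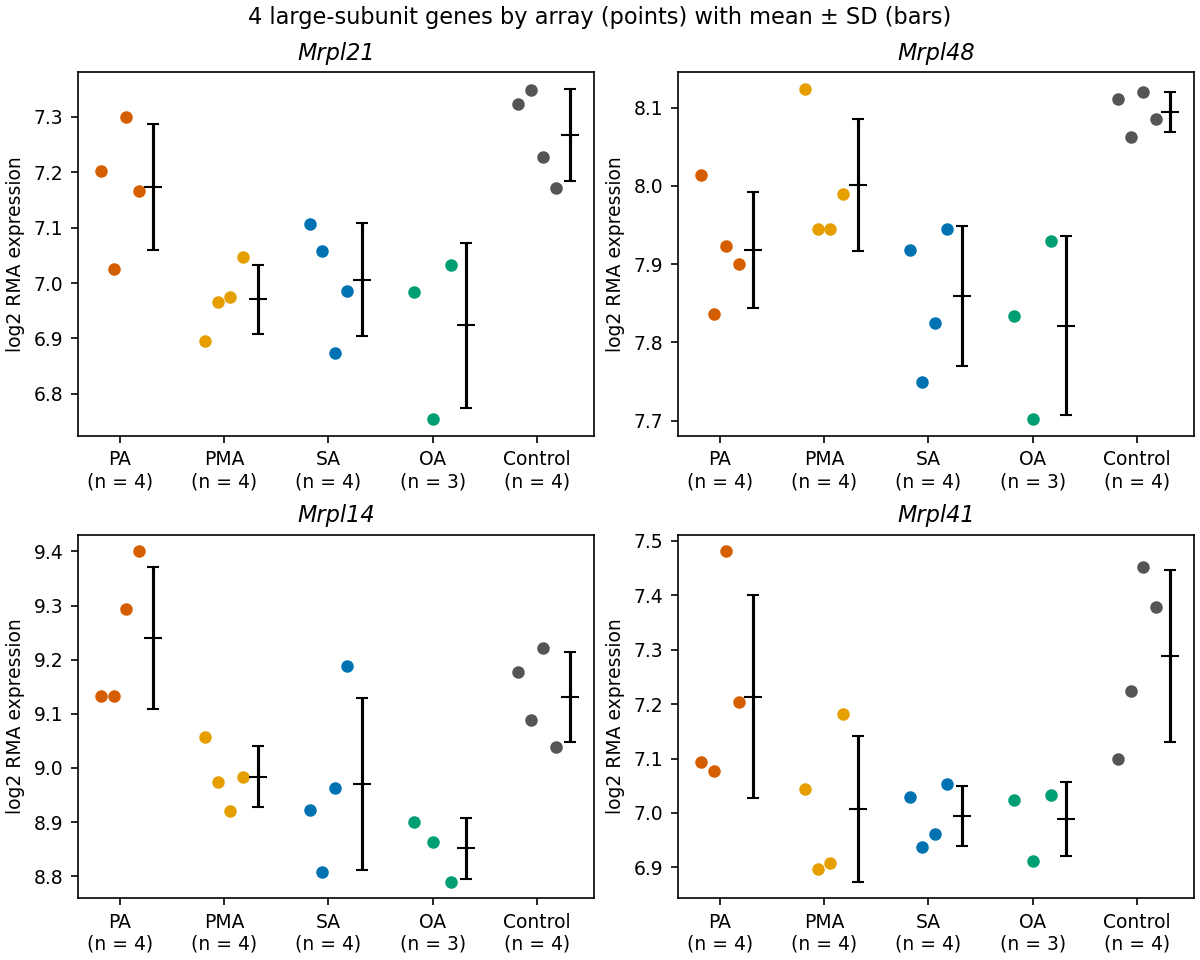
Log2 RMA expression of Mrpl21, Mrpl48, Mrpl14 and Mrpl41 on each array (points) in PA, PMA, SA, OA and Control cells, with the mean and SD of each group as bars; the vertical axes differ between genes and do not start at 0. In all 4 genes the 3 OA arrays lie below the 4 Control arrays, and in Mrpl14 and Mrpl41 the PA arrays spread up to or above the Control arrays.

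The sequences before the start sites of these 4 genes are shown because they had the smallest p-values with OA. Some promoter features, which the choice by symbol did not use, were also more frequent among members than among the genes tested, though absent from most members. Each line gives the 250 bases before the first listed RefSeq start (build GRCm38.p6), 5′ to 3′ on the gene's own strand, with matches to the SP1 motif GGGCGG on either strand in capitals. Mrpl21 lies at chr19:3282792-3283041 (plus strand), Mrpl48 at chr7:100608302-100608551 (minus strand), Mrpl14 at chr17:45686099-45686348 (plus strand) and Mrpl41 at chr2:24975099-24975348 (minus strand).
Mrpl21: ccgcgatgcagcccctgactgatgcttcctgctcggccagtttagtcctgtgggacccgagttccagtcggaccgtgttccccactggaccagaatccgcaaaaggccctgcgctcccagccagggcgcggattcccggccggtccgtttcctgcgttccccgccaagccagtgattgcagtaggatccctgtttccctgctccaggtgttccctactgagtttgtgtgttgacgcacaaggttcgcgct
Mrpl48: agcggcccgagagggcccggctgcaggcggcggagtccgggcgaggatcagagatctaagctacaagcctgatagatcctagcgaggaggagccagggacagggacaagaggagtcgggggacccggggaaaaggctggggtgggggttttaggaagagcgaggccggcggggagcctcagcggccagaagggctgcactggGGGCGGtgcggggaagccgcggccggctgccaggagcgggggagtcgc
Mrpl14: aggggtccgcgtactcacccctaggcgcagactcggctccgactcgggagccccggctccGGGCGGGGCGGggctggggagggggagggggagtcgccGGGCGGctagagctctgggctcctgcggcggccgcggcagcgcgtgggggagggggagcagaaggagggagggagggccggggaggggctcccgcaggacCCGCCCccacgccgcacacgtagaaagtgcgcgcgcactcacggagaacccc
Mrpl41: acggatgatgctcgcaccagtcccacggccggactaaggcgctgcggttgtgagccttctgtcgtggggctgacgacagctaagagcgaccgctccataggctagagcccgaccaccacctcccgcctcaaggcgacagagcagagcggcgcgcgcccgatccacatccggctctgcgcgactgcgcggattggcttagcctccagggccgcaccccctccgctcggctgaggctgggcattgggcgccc
Mrpl14 holds 4 SP1 matches, Mrpl48 holds 1, and Mrpl21 and Mrpl41 hold 0. None of the 4 windows holds the NRF1 motif (GCGCA and GCGC with any 1 base between them) or the GABP motif CCGGAAG, the letters bound by 2 factors known for driving nuclear genes of mitochondrial proteins. A missing match says only that these letters are not in this window. Whether the probe sets used for Mrpl48 and Mrpl41 measure transcripts from these starts was not tested.

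Promoters of 65 members were listed. The NRF1 motif stood in 10 of the 65 (15.4%), against 5.96% of the 14739 genes tested with a listed promoter, and the GABP motif in 15 (23.1%), against 9.68%. SP1 matches were near the background, at 47.7% against 46.5%. Both strands were searched in windows of 250 bases, and no motif's letters contain those of another. Of the 10 members with an NRF1 match, 9 were among the 40 large-subunit promoters (22.5%) and 1, Mrps21, among the 25 small-subunit promoters (4%). Mrpl12, Mrpl44 and Mrpl45 were among the large-subunit genes with a match. The median difference with OA was -0.05 in the 10 members with the NRF1 motif and -0.06 in the 55 without. A start of another gene within 1000 bases on the opposite strand was listed for 25 of 65 members (38.5%), against 13.2% of the genes tested. Mrpl46 and Mrps11 are such neighbours of each other, a large- and a small-subunit gene started from 1 shared stretch, with OA differences of 0.03 and -0.04. Of the genes with lower values with OA, Mrpl21 faces Ighmbp2 (0.02 with OA), Mrpl14 faces Tmem63b (0.01) and Mrpl41 faces Pnpla7 (-0.02), and none of these 3 neighbours passed the test.

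Small-subunit genes had the lower median with OA, -0.10 over 28 genes against -0.05 over the 46 large-subunit genes. Below 0 lay 21 of 28 small-subunit genes (75%) and 36 of 46 large-subunit genes (78.3%). The means were -0.08 and -0.07. The large-subunit median minus the small-subunit median was 0.0572, and it was 0.0111 without OA replicate 3, 0.0232 without Control replicate 2 and 0.00961 with every probe set counted, so the gap rests on single arrays and on the probe sets used. With genes assigned by their position in the ribosome, the medians were -0.11 over 25 small-subunit and -0.04 over 48 large-subunit genes. Array by array, the large-subunit median minus the small-subunit median was 0.02, 0.02 and 0.05 in the OA arrays, against -0.01, -0.04, 0.01 and 0.00 in the Control arrays. For PA it was 0.01, 0.01, 0.01 and -0.04, for PMA -0.03, 0.03, 0.03 and 0.01, and for SA 0.05, 0.02, 0.04 and -0.01. These gaps are a few hundredths of a log2 unit, and only in the OA arrays do all values lie above those of Control. By the origin assigned here, the OA medians were -0.05 for bacterial homologs and -0.06 for mitochondria-specific proteins.

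**Figure D2:**
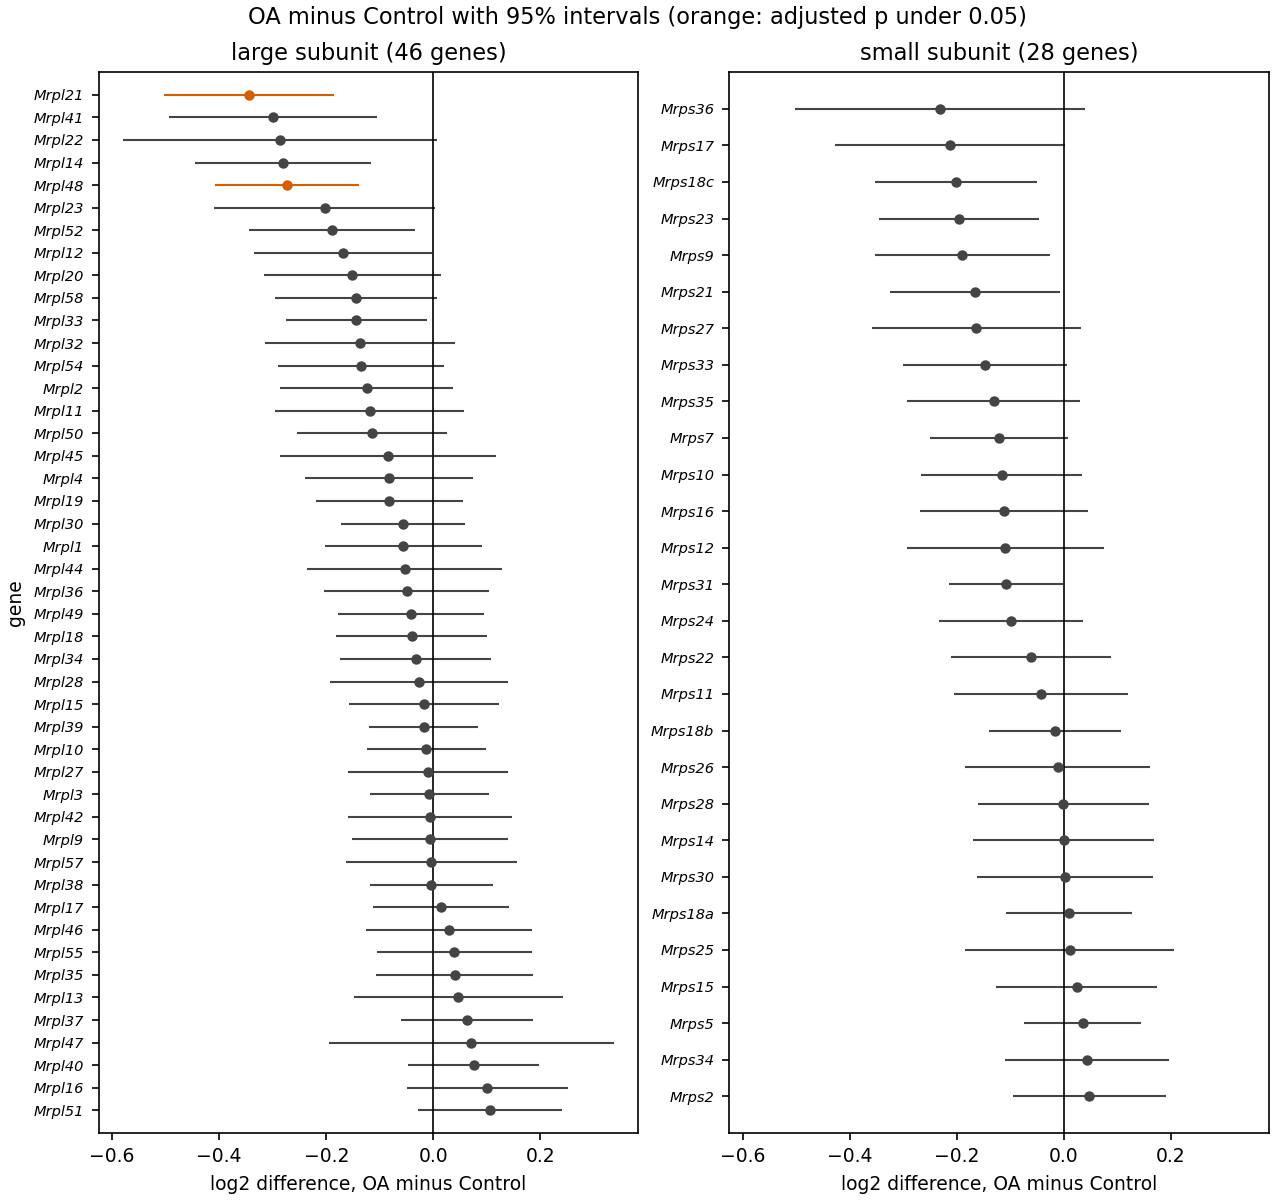
Log2 difference of OA minus Control for each mitochondrial ribosomal protein gene, with the 95% interval from limma as a horizontal bar, for 46 large-subunit genes (left) and 28 small-subunit genes (right), ordered by the difference. Most points lie left of 0 in both panels, and Mrpl21 and Mrpl48 (orange) have an adjusted p under 0.05.

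Among small-subunit genes of known place, differences with OA ran from -0.20 to 0.04. Mrps12, a protein of the decoding centre, differed by -0.11 ± 0.09, Mrps5, at the entry of the mRNA, by 0.04 ± 0.05, Mrps11, of the platform, by -0.04 ± 0.08 and Mrps7, of the head, by -0.12 ± 0.06. The mitochondria-specific Mrps22, Mrps27 and Mrps34 differed by -0.06, -0.16 and 0.04. Mrps18c, Mrps18b and Mrps18a descend from 1 bacterial protein and occupy different sites, and they differed by -0.20, -0.02 and 0.01. In the large subunit, the stalk proteins that call in the elongation factors differed by -0.17 (Mrpl12, adjusted p = 0.416), -0.01 (Mrpl10) and -0.12 (Mrpl11). Around the exit of the peptide tunnel, where the ribosome meets the inner membrane, Mrpl23 differed by -0.20 and Mrpl45 by -0.08. The core proteins Mrpl3 and Mrpl4 differed by -0.01 and -0.08, and Mrpl44 and Mrpl37, both mitochondria-specific, by -0.05 and 0.06. None of these genes passed the test with OA.

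Stearic acid, which has the chain length of OA and no double bond, had 0 members past the threshold, where 0.165% of all genes passed. Members below 0 numbered 52 of 74, against 41.9% of all genes, and the median was -0.05 over the members and 0.02 over all genes. By unadjusted p, 9 members were lower and 0 higher, where 2.89% and 5.64% of all genes were. In 10 members all SA arrays lay below all Control arrays, where 2.5% of all genes did so. The genes with the smallest p were Mrpl48, Mrpl21, Mrpl41 and, in the small subunit, Mrps21, a bacterial homolog. Mrps21 measured 9.56, 9.50, 9.45 and 9.50 with SA, against 9.76, 9.66, 9.69 and 9.80 in Control. The SA arrays lay wholly below the Control arrays, and the difference was -0.22 ± 0.07 (adjusted p = 0.279). Mrps21 differed by -0.22 with PA, -0.19 with PMA and -0.17 with OA, none of which passed. On the higher side, Mrps5, Mrpl51, Mrpl55 and Mrps26 had the smallest p with SA, and none exceeded 0.10. The second probe set of Mrpl51 gave -0.12 with SA.

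Palmitic acid had 0 members past the threshold, and 0% of all genes passed. Members below 0 numbered 48 of 74, against 38.3% of all genes, with a median of -0.02 over the members and 0.03 over all genes. After cyclic loess between arrays these medians were -0.01 and 0.01. By unadjusted p, 9 were lower and 2 higher, where 4.55% and 10.9% of all genes were. Without PA replicates 2 and 4 the members' median was 0.02, so the sign of the PA median rests on those arrays. The lowest gene was Mrps36, at 7.71, 6.99, 7.75 and 7.24 with PA, against 7.70, 7.98, 7.83 and 7.73 in Control. Replicates 2 and 4 were low and replicates 1 and 3 overlapped Control. The difference was -0.38 ± 0.12 (adjusted p = 0.225) with all arrays and -0.08 without PA replicates 2 and 4. Among the PA arrays, replicates 2 and 4 are the lowest for Mrps36, Mrps17 and Mrps27 and the highest for Mrpl12 and Mrps12. Leaving them out therefore shrinks the PA differences of these genes by construction. Whether the probe set used measures Mrps36 or a pseudogene of it was not tested. Mrps17, a bacterial homolog, gave 7.62, 7.16, 7.83 and 7.37 with PA, against 7.75, 7.81, 7.81 and 7.75 in Control. Its difference of -0.29 ± 0.10 (adjusted p = 0.228) was -0.06 without those arrays, and that of Mrps27, -0.27 ± 0.09 (0.228), was -0.15. On the higher side, the 4 genes of smallest p were Mrpl12, Mrps16, Mrpl14 and Mrps12. Mrps16 differed by 0.16, and by 0.11 without PA replicates 2 and 4, and Mrpl14 by 0.11, and by 0.08 without them. Mrps12 differed by 0.12, and by 0.02 without them. Mrpl12 measured 9.19, 9.52, 9.37 and 9.41 with PA, against 9.31, 9.10, 9.29 and 9.14 in Control. Its difference was 0.16 ± 0.07 (adjusted p = 0.307), 0.07 without PA replicates 2 and 4, and -0.03 on a second probe set of the gene. Mrpl12 is the stalk protein also known to bind the mitochondrial RNA polymerase.

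Palmitoleic acid had 0 members past the threshold, where 0.266% of all genes passed. Members below 0 numbered 43 of 74, against 21.5% of all genes, with a median of -0.02 over the members and 0.06 over all genes. After cyclic loess between arrays, 52 of 74 members lay below 0 with PMA. By unadjusted p, 6 members were lower and 1 higher, where 1.49% and 14.5% of all genes were. All PMA arrays lay below all Control arrays in 4 members and above in 3, where 1.3% and 9.29% of all genes did. Without PMA replicates 1 and 4 the members' median was -0.05. Besides Mrpl21 and Mrpl41, the lowest p belonged to Mrpl50, a mitochondria-specific protein, at 8.34, 8.41, 8.42 and 8.45 with PMA, against 8.64, 8.63, 8.58 and 8.52 in Control. These arrays did not overlap, and the difference was -0.19 ± 0.06 (adjusted p = 0.159). Mrpl38, a protein of the central protuberance, was higher by 0.12 ± 0.05 (adjusted p = 0.275), and by 0.05 without PMA replicates 1 and 4, its highest PMA arrays. In 0 members did all 15 acid arrays lie on 1 side of the Control arrays, where 0.154% of all genes lay wholly below and 0.372% wholly above. The 4 comparisons share their Control arrays, so values that point the same way in several of them are not independent.

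**Figure D3:**
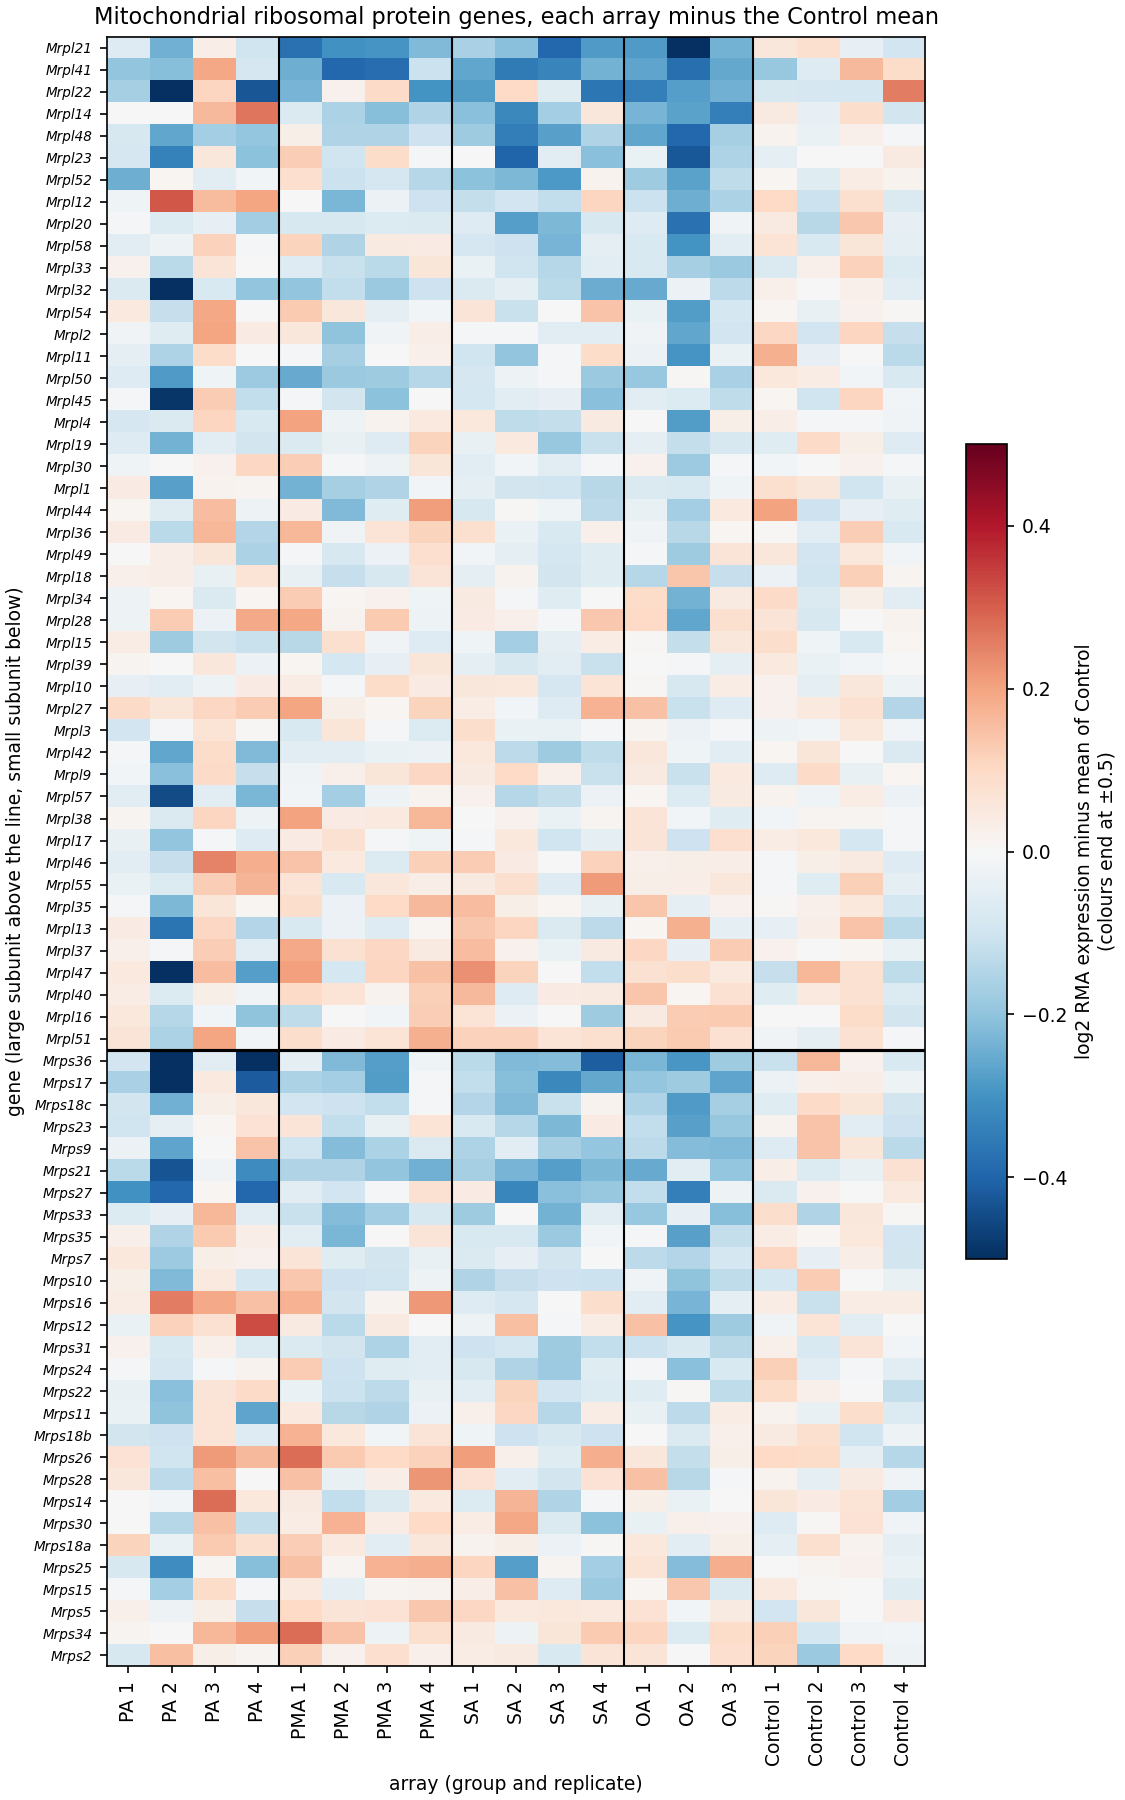
Log2 RMA expression of each gene on each array minus the mean of the Control arrays, as colour (blue lower, red higher, colours end at ±0.5), with large-subunit genes above the line and small-subunit genes below it, each ordered by the OA difference. Columns are the PA, PMA, SA, OA and Control arrays. PA replicate 2 and OA replicate 2 have 62 of 74 genes below the Control mean in each, and SA replicate 3 has 66. Control replicate 4 has 59, and OA replicates 1 and 3 have 42 and 45.

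Arrays of the same group lay far apart for these genes. The median over the 74 genes, relative to the Control mean of each gene, was -0.01, -0.13, 0.06 and -0.02 in the PA arrays and 0.04, -0.08, -0.03 and 0.02 in the PMA arrays. It was -0.02, -0.04, -0.08 and -0.05 in the SA arrays and -0.01, -0.12 and -0.05 in the OA arrays, against 0.02, -0.002, 0.03 and -0.04 in the Control arrays. PA replicates 2 and 3 lay at the opposite ends of all 19 arrays, and 1 OA and 1 SA array lay above the lowest Control array. Around the group means, members varied together: the mean correlation of 2 members over the 19 arrays was 0.287, against 0.0951 for 2 genes at large. It was 0.274 within the large subunit, 0.305 within the small subunit and 0.291 between a large- and a small-subunit gene. Cytosolic ribosomal protein genes had 0.251 and respiratory chain genes 0.238. The points share the arrays and their RNA input, and the members are mostly bright probe sets. Without PA replicates 2 and 4 and PMA replicates 1 and 4, the value was 0.199 for members, 0.0309 for all genes, 0.109 for cytosolic ribosomal protein genes and 0.227 for respiratory chain genes. Mrps28, Mrpl36 and Mrps35 followed the other members most closely (0.89, 0.86 and 0.84), and Mrpl18 the least (-0.18).

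**Figure D4:**
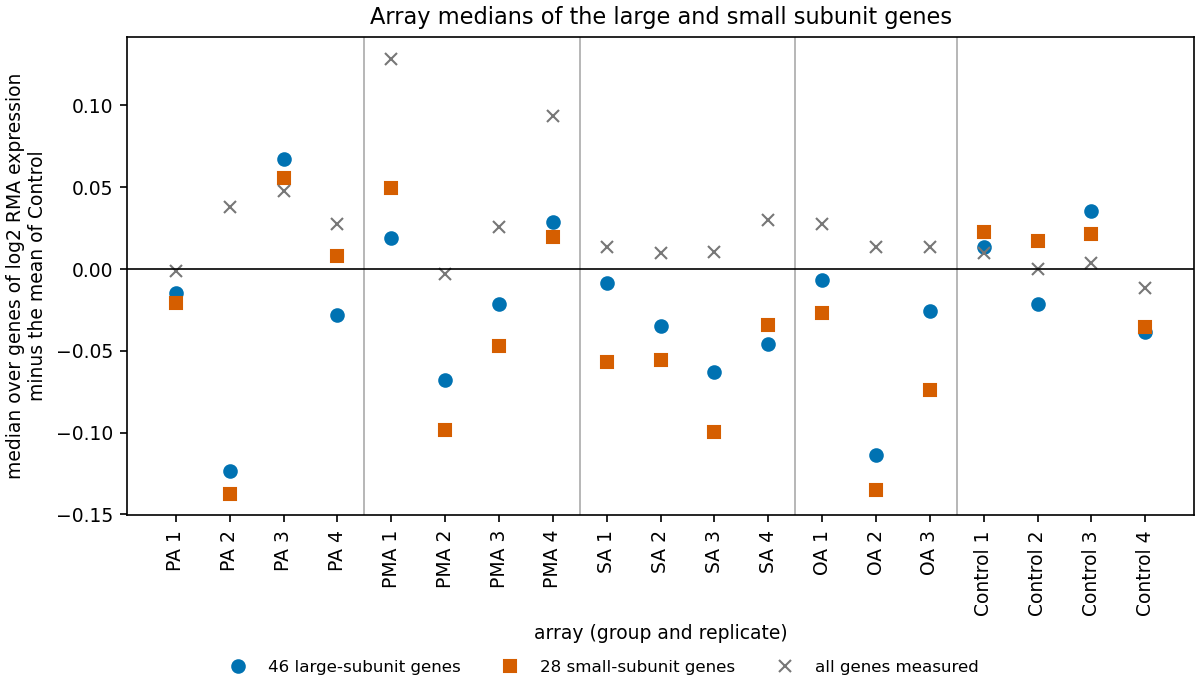
Median of log2 RMA expression minus the Control mean, on each array, over the 46 large-subunit genes (circles), the 28 small-subunit genes (squares) and all 18820 genes (crosses). The large- and small-subunit medians move together from array to array and are lowest in PA replicate 2 and OA replicate 2.

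Comparisons between acids asked whether the double bond or the chain length altered these genes. None of the 74 members passed in any of the 4 pairs that differ in 1 of these features. For PA against PMA, 0 members passed, where 0.962% of all genes did; 12 members had an unadjusted p under 0.05, where 17.7% of all genes had. The smallest adjusted p of a member was 0.0833. It belonged to Mrpl14, at 9.13, 9.13, 9.29 and 9.40 with PA, against 9.06, 8.97, 8.92 and 8.98 with PMA, a difference of 0.26 ± 0.07 (95% interval 0.10 to 0.41) without overlap. Mrpl12 differed by 0.25 ± 0.07 (0.10 to 0.41, adjusted p = 0.0906), by 0.16 without PA replicates 2 and 4, and by 0.01 on its second probe set. In the other direction stood Mrps25, at -0.28 ± 0.09 (-0.46 to -0.10, adjusted p = 0.111), and Mrps27, at -0.25 ± 0.09 (0.142), both mitochondria-specific small-subunit genes. Without PA replicates 2 and 4, the lowest PA arrays for both genes, they differed by -0.16 and -0.13. For SA against OA, 0 members passed, where 0.0319% of all genes did, and 1 member had an unadjusted p under 0.05, against 2.4% of all genes. The differences ran from -0.14 (Mrpl16) to 0.16 (Mrpl54), with a median SE of 0.07, and the interval for Mrpl54 was 0.00 to 0.31. Mrpl21 differed between SA and OA by 0.08 (95% interval -0.08 to 0.24) and Mrpl48 by 0.04 (-0.10 to 0.17), so a difference between these acids was not detectable with these arrays.

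For PA against SA, 0 members passed, where 0.143% of all genes did, and 5 members had an unadjusted p under 0.05, against 15.8% of all genes. Mrpl14 had the smallest p, with a difference of 0.27 ± 0.07 (95% interval 0.12 to 0.42, adjusted p = 0.141). SA arrays measured 8.92, 8.81, 8.96 and 9.19 for this gene, and the highest of them overlapped the PA arrays. Mrpl12 differed by 0.22 ± 0.07 (adjusted p = 0.199), by 0.12 without PA replicates 2 and 4, and by 0.02 on its second probe set. For PMA against OA, 0 members passed, where 0.0531% of all genes did, and 7 had an unadjusted p under 0.05, against 8.61% of all genes. Mrpl48 differed by 0.18 ± 0.07 (0.04 to 0.31, adjusted p = 0.495) and Mrps23 by 0.19 ± 0.07 (0.04 to 0.34, 0.497), both with all PMA arrays above all OA arrays. The mean of the saturated acids against that of the monounsaturated acids gave 0 members, where 0.553% of all genes passed, and 7 with an unadjusted p under 0.05, against 12.6% of all genes. Mrpl14 came closest (0.19 ± 0.05, adjusted p = 0.133). The test of whether the double bond acted differently at the 2 chain lengths (an interaction term) gave 0 members, where 0.00531% of all genes passed, and 0 with an unadjusted p under 0.05, against 5.24% of all genes. The smallest adjusted p was 0.929. The mean of the 4 acids against Control also gave 0 members, where 0.197% of all genes passed, and 13 with an unadjusted p under 0.05, all lower, against 2.74% of all genes. Mrpl21 had the smallest adjusted p there, 0.0636, at a difference of -0.25 ± 0.06.

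Genes that work beside the mitochondrial ribosome were counted from lists. Of a list of mitoribosome proteins with other symbols and of Oxa1l, the inner-membrane insertase that docks to this ribosome, 4 of 7 were measured (Chchd1, Dap3, Ptcd3 and Oxa1l), and 1, Chchd1, a small-subunit protein, fell with OA (a difference of -0.52 ± 0.10, adjusted p = 0.0193). Chchd1 differed by -0.13 with PA, -0.38 with PMA (adjusted p = 0.0791) and -0.34 with SA (0.179). By limma, none of 19 assembly factors, 12 translation factors, 18 aminoacyl-tRNA synthetases, 12 genes of mitochondrial DNA transcription and RNA handling, or 12 nuclear regulators passed with any of the 4 acids. Unadjusted p-values under 0.05 with OA numbered 1, 2, 0, 1 and 3 in these lists, where 11.6% of all genes had one. Their medians with OA lay between 0.01 and 0.07, beside 0.02 over all genes and -0.05 over the members. The elongation factor gene Gfm1 differed by 0.16 ± 0.06 with OA (adjusted p = 0.254), Gabpa, which encodes the DNA-binding subunit of the GABP factor, by 0.23 ± 0.08 (0.252), and Myc by -0.22 ± 0.07 (0.155). Of 72 cytosolic ribosomal protein genes, 5 fell with OA: Rps24 (-0.45 ± 0.07, adjusted p = 0.00419), Rpl11, Rpl35, Rps12 and Rpl35a, where 0.404% of all genes fell. The median of the 72 with OA was -0.10, with 58 of 72 below 0, against 43.3% of all genes. Of 81 genes of the respiratory chain and ATP synthase, 1, Cox6a2, fell with SA (-0.43) and with OA (-0.41), and the medians were -0.04 with both.

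Markers of cell state moved beside these values. The summed log2 level of the 9 adipocyte markers was 101.9 to 102.2 in OA arrays and 101.7 to 102.2 in SA arrays, against 101.2 to 101.3 in Control arrays, with 0 of 9 past the threshold in each. The summed level of the 6 preadipocyte markers was 56.7 to 57.4 in OA arrays, against 56.2 to 56.6 in Control arrays, with 0 of 6 past the threshold. For PMA it was 57.1 to 57.7, with 1 of 6 past the threshold. Of the 4 brown adipocyte markers, 1, Cidea, was higher with OA (0.43, adjusted p = 0.0209), and the other 3 lay below 0, down to -0.07; the median over the 4 was -0.04. The macrophage list stayed dim, with 4 of its 6 genes in the bottom tertile. The part of these markers in the values of the mitochondrial ribosomal protein genes was not tested.

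**Figure D5:**
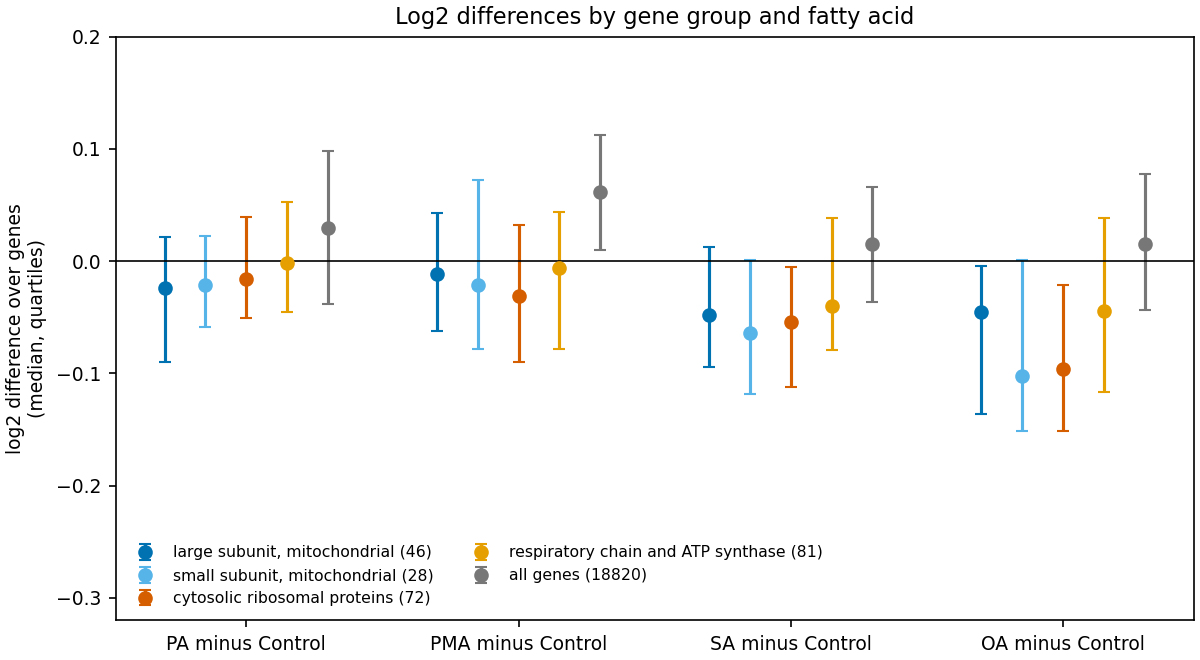
Median (point) and quartiles (bar) of the log2 differences of each acid minus Control over 46 large-subunit and 28 small-subunit mitochondrial ribosomal protein genes, 72 cytosolic ribosomal protein genes, 81 genes of the respiratory chain and ATP synthase, and all 18820 genes. With SA and OA the medians of the 4 gene groups lie below 0 and that of all genes above 0; the lowest are those of the small subunit (-0.10) and the cytosolic ribosomal proteins (-0.10) with OA.

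Which probe set stood for a gene mattered for some members. RefSeq lists 8 pseudogenes named for 6 members, Mrpl23, Mrpl27, Mrpl48, Mrpl51, Mrps33 and Mrps36. The annotation pairs probe sets with symbols and not with positions. Signal from such a copy was therefore not separated here from that of the gene, and a probe set used may measure the copy. Mrpl48-ps lies on chromosome 4 and Mrpl48 itself on chromosome 7. A second probe set listed for both Mrpl48 and Rab6a gave -0.19 with OA (adjusted p = 0.646). The 2 probe sets that list Mrpl41 with Dph7 gave 0.19 and -0.02 with PMA, beside -0.28 on the probe set listed for Mrpl41 alone. For Mrps36, the probe set shared with Sgk3 gave -0.32 with PA, beside -0.38. Of the 4 genes measured only on shared probe sets, Mrpl53 (with Ccdc142) gave -0.21 with OA (adjusted p = 0.128), Mrpl24 (with Rrnad1) -0.20 (0.297), Mrpl43 (with Sema4g) 0.07 and Mrps6 (with Slc5a3) 0.06. None of the 9 shared probe sets passed with any acid.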

How the data were processed

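Each of the 19 arrays, Affymetrix whole-transcript mouse gene arrays, received 100 ng of RNA with an integrity number above 9, per the labels' protocols. The deposited values are log2 expression per probe set. The authors made them by RMA (affy 1.34.0 under R 2.15.0, per the submitters' processing notes); the genome build is not given in the sources used here.

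Of 35556 probe sets, 21218 carried 1 gene symbol, and the brightest per gene, by its mean over all arrays, gave 18820 genes; 12 members had more than 1 probe set. All 74 members were found by gene ID in RefSeq (GRCm38.p6), the source of the promoters. In limma 3.58.1 under R 4.3.3, with a variance prior that was neither trended nor robust, a model with a mean for each of the 5 groups was fitted over the 19 arrays. It gave 11 contrasts, with two-sided tests and Benjamini-Hochberg adjustment within each contrast. The fit was tested on simulated data. Gene lists got counts and medians, with no test. Named genes were members past the threshold, those with the smallest p in each direction (4 per acid against Control, 2 per other contrast) and a panel by role. The members and lists were chosen with earlier results of these data known. Alternatives covered the probe set rule, dim genes, scaling, the variance model, array weights, the replicate number as a block and each array left out. PA replicates 2 and 4, or PMA replicates 1 and 4, were also left out together, which leaves 2 arrays in that group. These have the highest array medians of their groups, while PA replicate 4 and PMA replicate 4 had quality weights of 0.948 and 0.902. Where such a pair holds the extreme values of its group, leaving it out moves the difference by construction. The correlation of members without 4 arrays was added after seeing the data. The number of arrays limits the precision.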

Additional observations from a re-analysis of the deposited data

Results flagged for a closer look

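A single array stood far from the other 3 of its group in 12 of 180 groups of 4 arrays tested with Dixon's criterion, where chance gives about 5%. The count lies little above that rate, so the cases listed here were not told apart from chance. Mrpl1 was low in PA replicate 2 (8.05, the others 8.33 to 8.36), and so was Mrps7 (9.34, the others 9.54 to 9.57). Mrpl4 was high in PA replicate 3 (9.09, the others 8.90 to 8.91) and in Control replicate 1 (9.02, the others 8.97). Mrpl11 was low in PMA replicate 2 (7.85, the others 8.01 to 8.04), and Mrps26 was high in PMA replicate 1 (8.33, the others 8.15 to 8.18). In SA, Mrpl10 was low in replicate 3 (10.05, the others 10.18 to 10.20), Mrpl12 high in replicate 4 (9.32, the others 9.08 to 9.11) and Mrps5 high in replicate 1 (8.86, the others 8.80 to 8.81). In Control, Mrpl3 was high in replicate 3 (9.21, the others 9.14 to 9.15) and Mrps16 low in replicate 2 (7.91, the others 8.06 to 8.07). The large-subunit median minus the small-subunit median was -0.0364 in PA replicate 4 and 0.00592 to 0.0136 in the other 3 PA arrays.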

How the results depend on the processing

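With OA, 0 members passed with the replicate number as a block or with only the OA and Control arrays, and 5 with array quality weights (Mrpl14, Mrpl21, Mrpl41, Mrpl48 and Mrps21). With the replicate block the adjusted p was 0.0678 for Mrpl21 and 0.0517 for Mrpl48. Leaving out 1 array gave 0 to 2: 0 without any 1 OA or Control array, and Mrpl21 alone without PA 3, PA 4, PMA 2, PMA 3, PMA 4, SA 1 or SA 3. With PMA, Mrpl21 passed (1 member) without the bottom tertile of genes by level, after cyclic loess, with a trended robust spread, or without PA replicates 2 and 4. With PMA, 2 passed with array weights and 0 to 1 with an array left out (Mrpl21 without PA 2). With SA, 1 passed after cyclic loess (Mrpl48) and 4 with array weights. With PA, 0 to 1 passed with an array left out (Mrps36 without PA 1). For PA against PMA, 1 passed after cyclic loess (Mrpl14), 2 with a trended spread, 1 with array weights, and 0 to 2 with an array left out (Mrpl12 and Mrpl14 without PA 1, Mrps25 and Mrps27 without PA 3). For PA against SA, leaving out 1 array gave 0 to 2 (Mrpl12 and Mrpl14 without PA 1, Mrpl14 without SA 4), and for the saturated against the monounsaturated acids array weights gave 1. For the 4 acids together, 1 passed without the bottom tertile, 3 after cyclic loess, 2 with a trended spread, 5 with array weights and 0 to 1 with an array left out (Mrpl21 without PA 2 or PA 3). The large minus small subunit gap was 0.0451 with PMA without replicates 1 and 4 (-0.0193 to 0.0324 with 1 array left out). With OA it was 0.0281 with averaged probe sets, 0.00961 with every probe set and 0.0106 by means (0.0111 to 0.0572 with 1 array left out). Cyclic loess moved the split of higher against lower members from 30 and 44 to 49 and 25 for PA against PMA. The causes were not tested, apart from the fewer arrays or genes that some settings use by construction. The side of the threshold of single named members stayed in 1674 of 1736 values recomputed under these settings. Changes of sign were not counted there. Many of these results lay far from the threshold, such as Mrpl16 for SA against OA (limma adjusted p from 0.999 with 1 array left out). The pooled count therefore says little about calls near it. With 1 array left out, the OA call stayed in 12 of 19 fits for Mrpl21 and in 5 of 19 for Mrpl48. Under the 10 other settings it stayed in 8 for each gene. For PA against SA, Mrpl47 differed by -0.22 with all arrays and by 0.05 without PA replicates 2 and 4. Mrpl57 lay between -0.18 and -0.05 with 1 array left out, and at 0.01 without PA replicates 2 and 4. Those are the lowest PA arrays for both genes. No pairing of the samples by replicate number was seen. Of 36 pairs of arrays with the same number, 6 had deviations correlated above 0.1 (range -0.433 to 0.396). Pairs of different number also varied widely (PA replicate 1 with SA replicate 4 at -0.539, PA replicate 2 with SA replicate 4 at 0.501). The check therefore cannot exclude a shared culture or day. Apart from the OA count, which it moved from 2 to 0, the block changed no count of members called.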

Other observations

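The 12 members with more than 1 probe set of their own gave 13 further probe sets, of which 0 passed the test in limma in any contrast. Mrpl42, a mitochondria-specific protein, differed by -0.51 with OA on its second probe set (adjusted p = 0.099), which was dim at a mean level of 4.57, and by -0.01 on the brighter one, at 8.17. Mrpl18 differed by -0.36 with PA on its second probe set and by 0.02 on the first. For Mrpl23 the probe sets met, at -0.20 and -0.21 with OA, and for Mrps33 likewise, at -0.15 and -0.14. Probe sets of 1 gene opposed each other in sign, with an unadjusted p under 0.05 on either, in 6 of 143 pairings of a second probe set with a contrast. These were Mrpl10 with OA, Mrpl12, Mrpl18 and Mrpl51 with PA, Mrpl18 for PA against SA and Mrpl47 for PA against PMA.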
